A study of Mus musculus with 13 samples.

Results

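The genes described here are 56 mouse cell cycle genes in 2 lists of 28, one for copying DNA and one for dividing. They were chosen by symbol from a fixed list, and all of them are listed both in the tumor endothelium files, which hold 24984 genes, and in the files of sprouting endothelium, which hold 24421. The replication list runs from origin licensing (Mcm2 to Mcm7, Cdc6, Cdt1 and Orc1) and helicase activation (Cdc45, Gins1, Gins2) to the replication fork, nucleotide supply, histone supply and G1/S control. The mitosis list holds genes for chromosome structure, mitotic entry, the spindle checkpoint, kinetochores, the spindle and cytokinesis.

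A cell that starts to divide first loads the Mcm helicase onto replication origins and, when E2F transcription factors are released from their repressors, makes the enzymes that copy DNA in S phase. Genes for mitosis are switched on later, in G2, largely through promoter elements called CHR (cell cycle genes homology region) and CCAAT boxes, which bind the DREAM and B-Myb complexes and NF-Y. In blood vessels most endothelial cells are quiescent, and VEGF brings them back into the cycle when new vessels grow.

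The study asked what the absence of the peptide Apelin does to endothelial cells, in tumors and in vessels sprouting in culture. The tumor libraries come from endothelial cells sorted as CD31+ and CD105+, by the study's methods with dead (DAPI+) and CD45+ blood cells gated out, 100 cells a library, from orthotopic tumors of E0771 mouse mammary carcinoma cells in C57BL6/J mice. In the depleted group (3 libraries) germline Apln-/- mice carried E0771 cells with an shApln hairpin, and in the wild-type group (6 libraries) wild-type mice carried cells with a control hairpin, shRenilla. Apelin was thus removed from host and tumor cells together, and the 2 sources cannot be told apart. The sprout libraries come from CD31+ cells sorted from embryoid bodies on a C57BL/6x129 background, moved on day 8 into collagen gel with 30 ng/ml VEGFA164. Cells labelled Apln STOP (2 libraries) carry a gene trap in sense inside Apln, and cells labelled Apln GO (2 libraries) are sister cells of the same haploid line in which Cre turned the trap to antisense. By the study's account STOP embryoid bodies had DMSO and GO embryoid bodies 1000 nM Apelin peptide, so genotype, exposure to Cre and added peptide differ together. The protocol given with the samples names 1000 nM Apelin for all 4 sprout libraries and does not separate the groups by peptide. For each library the values are CPM, each gene's counts scaled to the library's total of assigned reads and then between libraries. Nothing in the labels says that libraries of 1 group came from separate tumors or cultures, and p-values measure only the spread between these libraries.

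Apln itself was measured first. In tumor endothelium Apln was at 12.1, 8.51 and 2.44 CPM in the depleted libraries and between 416 and 1033 CPM, with a median of 895, in the wild-type libraries, and it was the only gene of 13073 tested that passed the thresholds there (log2 fold change -6.70, adjusted p = 6.13e-05, edgeR's quasi-likelihood test). In sprouts Apln was at 66.1 and 80.2 CPM in STOP and at 58.2 and 65.9 CPM in GO (log2 fold change 0.24, edgeR adjusted p = 0.367). Apln counts were therefore not lower in the libraries labelled STOP. A count over the whole gene does not separate exons before the trap from those after it, and every direction in sprouts is given below for libraries labelled STOP against libraries labelled GO.

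Total counts were 4661044 to 14455093 in tumor libraries and 12327030 to 16804071 in sprout libraries, so 3 counts, the smallest level read as present, correspond to 0.208 to 0.644 CPM and to 0.179 to 0.243 CPM. Summed over 12 endothelial markers, tumor libraries held 10990 to 13945 CPM in the depleted and 7405 to 11409 CPM in the wild-type group, and all 12 were fitted higher in the depleted libraries (median 0.36 on the log2 scale, 0 at an adjusted p under 0.05 and 1 at an unadjusted p under 0.05 in edgeR). Sprout libraries held 2645 and 2422 CPM in GO but 661 and 873 CPM in STOP, and all 12 markers were lower in STOP at an adjusted p under 0.05 in edgeR. Pluripotency markers, among them Pou5f1 and Nanog, stood at 6269 and 6008 CPM in STOP and at 2568 and 4040 CPM in GO, above the endothelial sum in every sprout library except GO replicate 1, where the endothelial sum was 2645 CPM. The sorted sprout cells thus carried stem cell transcripts beside the endothelial markers of their label. Depleted replicate 1 stood apart among tumor libraries in myeloid markers (812 CPM) and epithelial markers (220 CPM), wild-type replicate 4 in myeloid markers (624 CPM) and wild-type replicate 2 in mural and fibroblast markers (4699 CPM).

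In tumor endothelium no gene of either list passed the test, and the lists leaned apart. Of the 28 replication genes 24 were fitted higher in the depleted libraries and 4 lower (median 0.42 on the log2 scale), and of the 28 mitosis genes 23 were fitted lower and 5 higher (median -0.53). The median over all 13073 tested genes was -0.03, with 48.1% fitted higher and 51.9% lower. The replication count rested on single libraries: 17 of 28 were fitted higher without depleted replicate 2 (median 0.15) and 18 without depleted replicate 3 or without wild-type replicate 2. The replication median of 0.42 stands beside the endothelial marker median of 0.36 in the same libraries, whose part in the result was not tested. All 56 genes passed the filter on low counts. By edgeR 0 of the 56 were called (background 0.00765% lower and 0% higher) and 0 reached an unadjusted p under 0.05, against 2.94% of all tested genes on the lower side and 1.87% on the higher side. The adjusted p was 0.9999 for every member. DESeq2 also had 0 at an adjusted p under 0.05, where 0.635% of all genes were lower and 0.128% higher. Limma voom with sample quality weights had 0 at that threshold too, where 0.00765% of all genes were lower and 0.00765% higher. The groups overlapped for all 56 genes, where 1.27% of all tested genes did not overlap and were lower and 1.06% were higher.

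Among the replication genes of tumor endothelium, 1 library carried much of the difference in several members. Mcm2, a subunit of the helicase ring that opens DNA, was at 23.1, 345 and 43.7 CPM in the depleted libraries and at 27.8 to 92.5 CPM, median 68.6, in the wild-type libraries. Rrm2, the small subunit of the reductase that makes deoxynucleotides, was at 9.52, 214 and 28.4 CPM against 14.9 to 69.1 CPM, median 31. Depleted replicate 2 alone lay above the wild-type range in both genes, and the other depleted libraries lay within or below it. The log2 fold changes were 1.10 ± 0.68 (SE) for Mcm2 and 1.21 ± 0.75 for Rrm2, and without depleted replicate 2 both turned negative, to -0.94 and -0.94.

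Fen1, the flap nuclease that trims Okazaki fragments, had the lowest p of the replication genes in edgeR (log2 fold change 0.80 ± 0.43 SE) and was at 37.6, 123 and 72.6 CPM against 23.5 to 69.5 CPM, median 43.9. Mcm5, another helicase subunit, was at 33, 131 and 130 CPM against 30.7 to 110 CPM, median 60.5. For Fen1 and Mcm5, depleted replicates 2 and 3 both lay above the wild-type range and replicate 1 lay inside it. Rrm1, the large reductase subunit, went the other way, at 22.3, 64.7 and 75.4 CPM against 48.2 to 126 CPM, median 78.7 (log2 fold change -0.69 ± 0.43 SE). Cdt1, the loading factor that lets Mcm rings onto origins, was likewise lower in the fit, at 48.4, 37.8 and 25 CPM against 20.1 to 93.2 CPM, median 65.7 (-0.71 ± 0.46 SE). Without depleted replicate 2 the value of Fen1 was 0.29 and that of Mcm5 0.38, and without depleted replicate 1 that of Rrm1 was -0.32 and that of Mcm5 1.07. Rrm1 and Rrm2, subunits of 1 enzyme, had fitted values of opposite sign here, and neither passed the test. Pcna, the sliding clamp of the fork, was at 66.3, 73.7 and 101 CPM against 36.9 to 81.3 CPM, median 51.8, with a log2 fold change of 0.50 ± 0.34 (SE) and of 0.30 without depleted replicate 3. The fitted log2 fold changes of the other Mcm genes were 0.07 for Mcm3, 0.63 for Mcm4 (0.026 without depleted replicate 2), 0.01 for Mcm6 and -0.31 for Mcm7. By role, the 8 fork genes and the 3 helicase activation genes were all fitted higher (medians 0.40 and 0.74), while 6 of the 9 licensing genes were (median 0.07).

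Among the mitosis genes of tumor endothelium, kinetochore, checkpoint and spindle genes had the lowest medians by role. Top2a, the topoisomerase that untangles sister chromosomes, was at 83.1, 89.6 and 158 CPM in the depleted libraries and at 117 to 430 CPM, median 153, in the wild-type libraries, with the lowest p of the list in edgeR (log2 fold change -0.82 ± 0.42 SE). Ube2c, the ubiquitin-conjugating enzyme that serves the anaphase-promoting complex, was at 32.6, 92.6 and 55.1 CPM against 34.2 to 226 CPM, median 110 (-0.92 ± 0.49 SE). Ndc80, the kinetochore protein that grips microtubules, was at 13.1, 10.8 and 11 CPM against 12.3 to 39.7 CPM, median 23.6 (-1.01 ± 0.55 SE). Of these 3 genes Ndc80 came closest to separate groups, with only wild-type replicate 5 below the highest depleted library.

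Cenpe, a kinetochore motor, was at 23.3, 18.7 and 73.6 CPM against 31.5 to 130 CPM, median 67.7 (-0.97 ± 0.51 SE). Tpx2, which activates Aurora A on the spindle, was at 15.5, 61.9 and 68.4 CPM against 46.8 to 126 CPM, median 82.0 (-0.82 ± 0.45 SE). Cenpf, a large kinetochore and nuclear envelope protein, was at 69.5, 43.7 and 64.9 CPM against 37.1 to 262 CPM, median 89.3 (-0.85 ± 0.49 SE). In Top2a and Cenpf the top of the wild-type range is 1 library, replicate 5, and without it their values were -0.42 and -0.35. Without depleted replicate 1 that of Tpx2 was -0.40, without wild-type replicate 2 that of Ube2c was -0.60, and that of Cenpe ran from -0.64 without depleted replicate 2 to -1.84 without depleted replicate 3. Cdk1, the kinase of mitotic entry, was at 46.4, 89.2 and 67.1 CPM against 75.6 to 130 CPM, median 91.4 (-0.50 ± 0.33 SE, and -0.29 without depleted replicate 1 or -0.76 without depleted replicate 2). Mki67, which coats mitotic chromosomes and is the usual histological mark of cycling cells, leaned the other way, at 21.1, 80.8 and 102 CPM against 20.6 to 116 CPM, median 55.1 (0.21 ± 0.52 SE), although its value turned to -0.19 without depleted replicate 3 and ran up to 0.65 without depleted replicate 1. All 5 checkpoint genes and all 3 cytokinesis genes were fitted lower, with medians of -0.76 and -0.36. Kinetochore genes had a median of -0.85 over 5 genes, 4 of them lower.

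**Figure D1:**
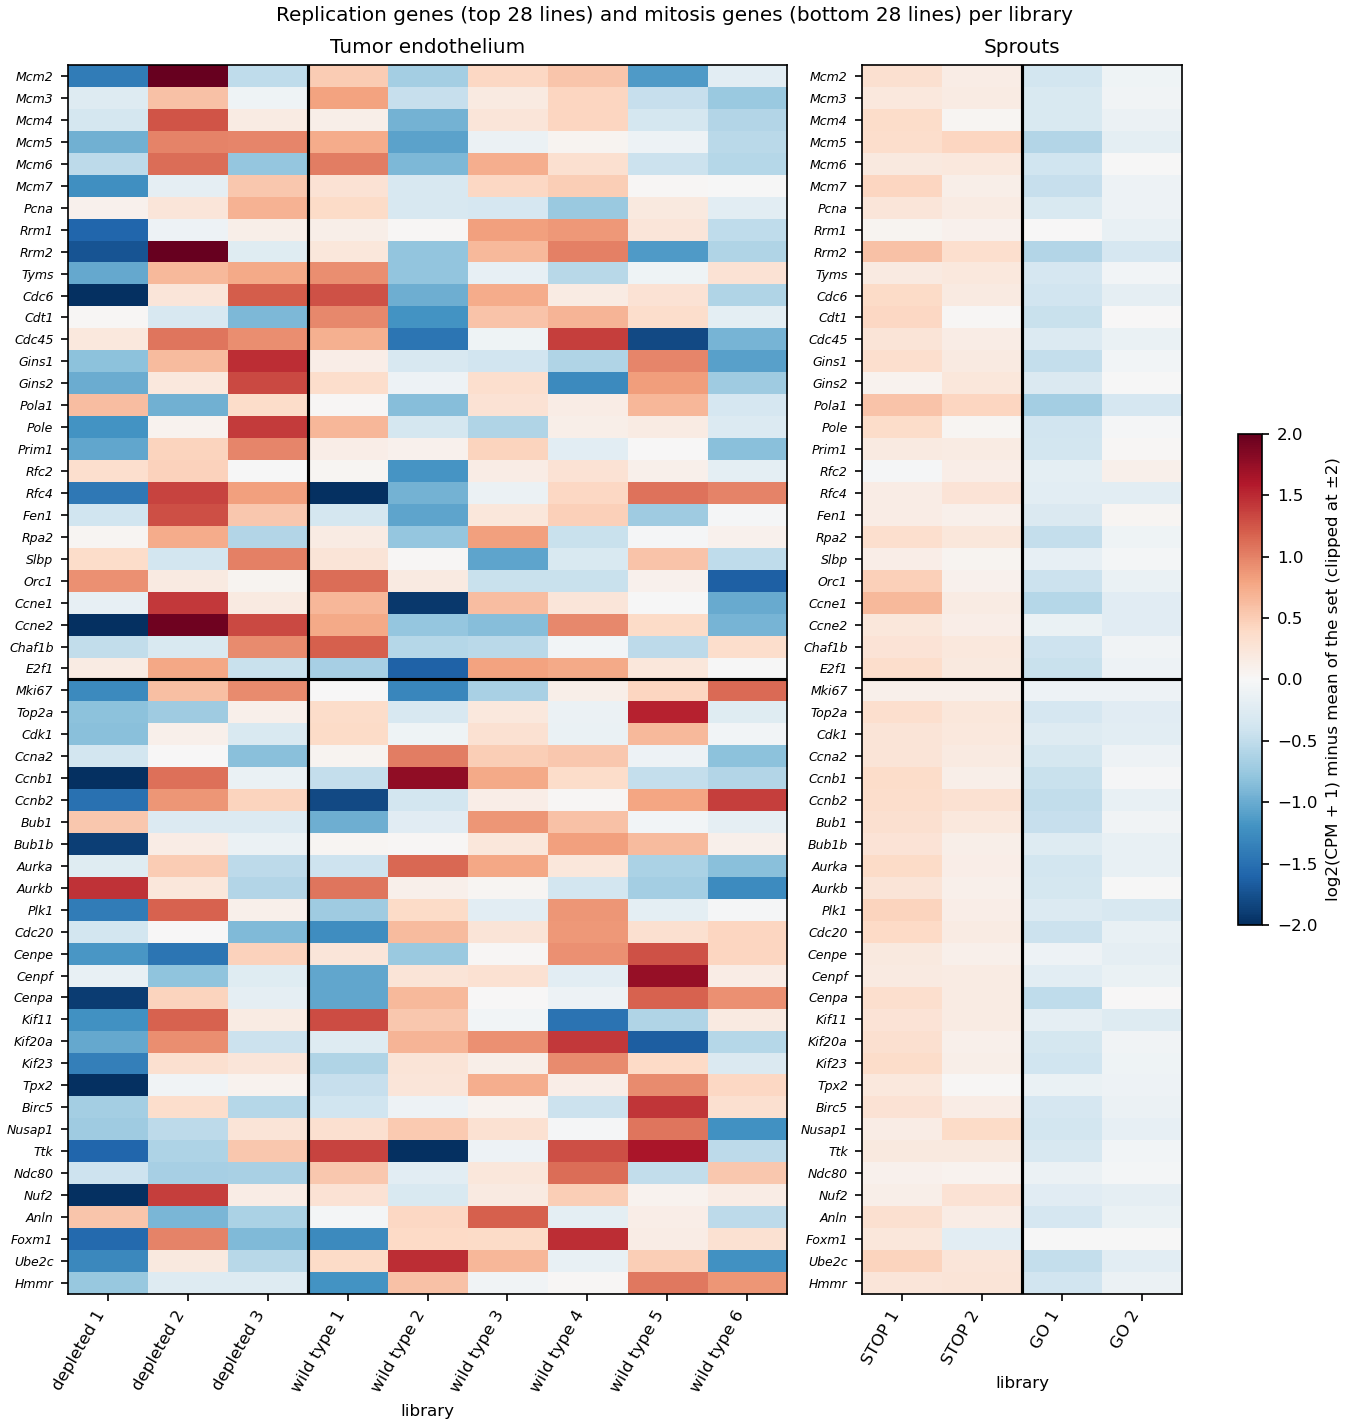
Level of each of the 56 genes (vertical axis, replication genes above the line, mitosis genes under it) in each library (horizontal axis), as log2(CPM + 1) minus the gene's mean over the tumor set or the sprout set, with color clipped at 2 on either side. Depleted replicate 2 is the highest tumor library in 10 replication genes and wild-type replicate 2 the lowest in 10, while on this scale both STOP libraries lie above both GO libraries in all genes but Rfc2 and Foxm1.

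Added up per library, replication transcripts did not follow Apelin status in tumors. The 28 genes summed to 780, 2013 and 1411 CPM in the depleted libraries and to 680 to 1493 CPM, median 1156, in the wild-type libraries. The lowest and highest depleted libraries span most of the range of both groups. Depleted replicate 2 was the highest of the 9 tumor libraries in 10 of 28 replication genes, and wild-type replicate 2 and depleted replicate 1 were the lowest in 10 and 9. The difference of the mean log2 sums, depleted minus wild type, was 0.29, within the larger of the group SDs, 0.69. On the median log2(CPM + 1) of the 28 genes, a scale that no single high gene moves, the group means were 5.04 and 5.04.

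The mitosis genes summed to 826, 1537 and 1268 CPM in the depleted libraries and to 1221 to 2446 CPM, median 1652, in the wild-type libraries. Wild-type replicate 1, at 1221 CPM, was the only wild-type library below depleted replicates 2 and 3. The difference of the mean log2 sums was -0.51, against 0.46 for the larger of the group SDs. The ratio of the mitosis sum to the replication sum was 1.06, 0.764 and 0.898 in the depleted libraries and 0.818 to 2.48, median 1.62, in the wild-type libraries. Here too wild-type replicate 1 alone lay among the depleted libraries, and the other 5 wild-type libraries were above all 3. Mural and fibroblast markers stood at 74.4 to 4699 CPM in the wild-type and 84.9 to 186 CPM in the depleted libraries, 0 to 2 of the 10 at 0 in a library. All 9 of these markers that were tested were fitted lower in the depleted libraries (median -2.22 on the log2 scale, 0 at an adjusted p under 0.05 and 2 at an unadjusted p under 0.05 in edgeR), and Pdgfrb and Col3a1 did not overlap between the groups. Wild-type replicate 2, the library at 4699 CPM, also had the highest ratio (2.48). Myeloid markers spanned 8.37 to 812 CPM in the depleted and 46 to 624 CPM in the wild-type libraries. Lymphoid markers summed to 25.8 to 81.8 CPM, with 1 to 4 of 7 at 0, and to 0 to 6.95 CPM, with 2 to 7 of 7 at 0. The pluripotency list, which holds Klf2 and Klf4 that endothelium also makes, summed to 1580 CPM in depleted replicate 2 and to 265 to 633 CPM in the other tumor libraries, with Pou5f1 and Nanog below the count filter. By the study's methods CD45+ cells were gated out of the sort, and myeloid markers were still counted in every tumor library. The part of these markers in the result was not tested. A fit left out depleted replicate 1 and wild-type replicates 2 and 4, raised in myeloid, epithelial or mural and fibroblast markers. Its medians were 0.50 for replication and -0.36 for mitosis genes, with 24 of 28 and 10 of 28 fitted higher. Depleted replicate 2, with the highest pluripotency sum, was kept, as was depleted replicate 3, with the highest lymphoid sum. In bulk libraries, fewer cycling cells and less RNA per cycling cell cannot be told apart.

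**Figure D2:**
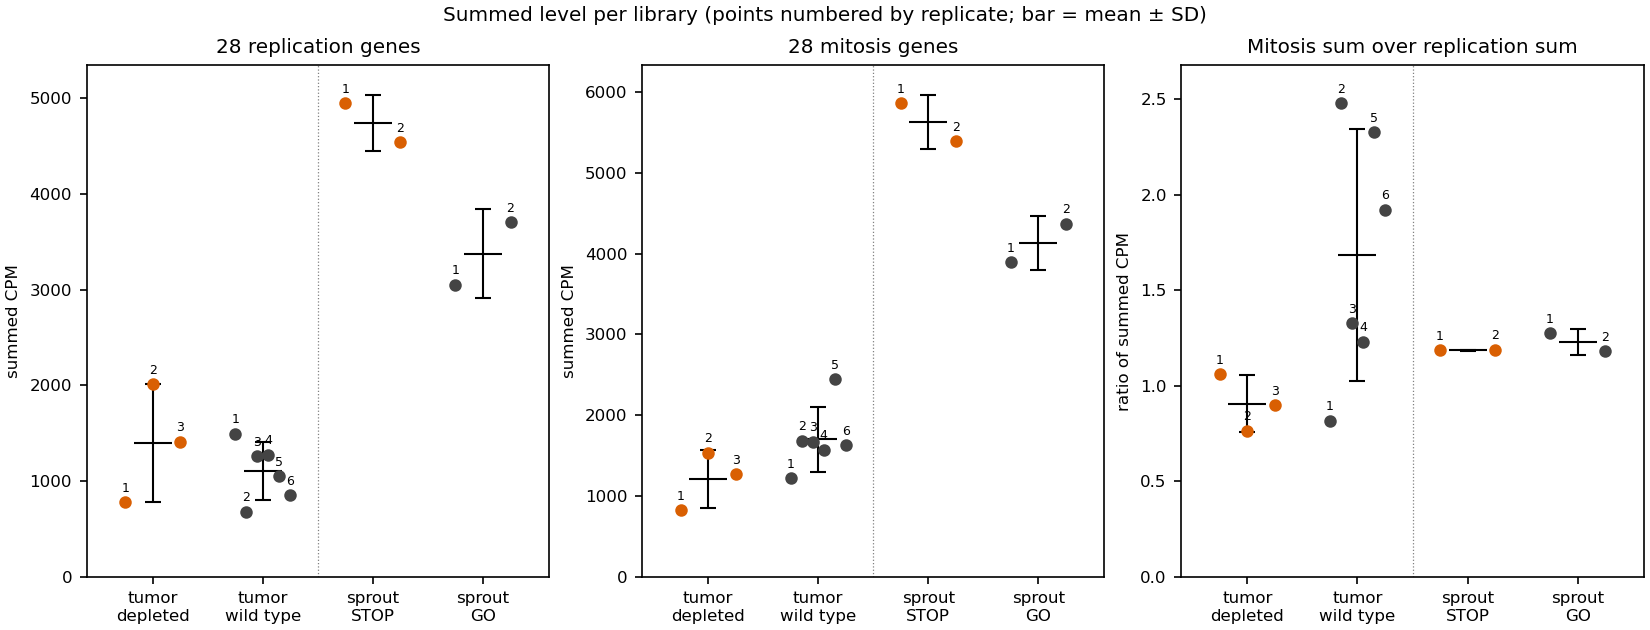
Summed CPM of the 28 replication genes (left) and the 28 mitosis genes (middle), and the ratio of the mitosis sum to the replication sum (right), per library on the vertical axis and by group on the horizontal axis. Points carry replicate numbers, and the bar is the group's mean with its SD. Tumor groups overlap in each panel. In sprouts both STOP libraries (4948 and 4538 CPM for replication) lie above both GO libraries (3050 and 3703 CPM), with ratios from 1.18 to 1.28.

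In sprouts all 56 genes were fitted higher in the libraries labelled STOP on scaled counts. On the log2 scale the medians were 0.43 for replication and 0.46 for mitosis genes, against 0.01 over the 14557 genes tested, of which 50.5% were fitted higher. On TPM 51 of 56 had a higher mean in STOP, where 5139 of the 14557 tested genes did. At an adjusted p under 0.05 in edgeR's quasi-likelihood test 3 replication genes (Pola1, Rrm2, Mcm5) and 2 mitosis genes (Ube2c, Ccnb2) rose, where 1.92% of all tested genes did and 4.3% fell. With the further demand of a log2 fold change over 1 only Pola1 was called, where 0.852% of all tested genes were called higher and 3.03% lower. At an unadjusted p under 0.05, 20 replication and 22 mitosis genes were higher, against 12.4% of all tested genes. Both STOP libraries lay above both GO libraries in 27 of 28 genes of each list, where 31% of all tested genes showed this and 29.6% the reverse, and the exceptions were Rfc2 and Foxm1. These counts depend on the scale: on the deposited TPM, an alternative chosen after seeing the data, where values are shares of all transcripts, 21 replication and 23 mitosis genes had separate groups, beside 18.9% of all tested genes, and the mean was lower in STOP for Rrm1, Rfc2, Slbp, Ndc80 and Foxm1. The genes of 1 list are made together in the same cells, and these shares do not count independent events. No member passed an adjusted p of 0.05 without STOP replicate 1 or without GO replicate 1, while 7 and 6 did without GO replicate 2.

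Pola1, the catalytic subunit of the polymerase that starts each DNA strand with its primase, was at 187 and 170 CPM in STOP and at 77.9 and 99.7 CPM in GO. Rrm2 was at 251 and 211 CPM against 111 and 131 CPM. Mcm5 was at 503 and 528 CPM against 262 and 342 CPM. Each of these 3 genes had its STOP libraries clear of its GO libraries. The log2 fold changes were 1.01 ± 0.16 (SE) for Pola1 (edgeR adjusted p = 0.0149), 0.93 ± 0.15 for Rrm2 (edgeR adjusted p = 0.0173) and 0.77 ± 0.17 for Mcm5 (edgeR adjusted p = 0.0384). Pola1 did not pass the thresholds when either first replicate was left out (STOP replicate 1 or GO replicate 1), and with DESeq2's size factors or RSEM counts its log2 fold change fell just short of the threshold of 1.

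Ube2c was at 166 and 143 CPM in STOP and at 86.7 and 105 CPM in GO (log2 fold change 0.69 ± 0.15 SE, edgeR adjusted p = 0.0396). Ccnb2, cyclin B2 of the mitotic kinase, was at 174 and 167 CPM against 96.1 and 122 CPM (0.64 ± 0.15 SE, edgeR adjusted p = 0.0484). These are moderate folds, 1.61 and 1.56, and GO replicate 2 lay nearer to STOP than GO replicate 1 in both genes. On RSEM's estimated counts, which share out reads that map to several places, 0 mitosis genes passed an adjusted p of 0.05. Of all tested genes 1.42% were higher at that threshold on these counts.

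The promoters of these genes are shown because E2F sites and CHR elements are the known regulatory marks of these lists. Below are the bases before the start of transcription of 4 of the 5 genes that passed the test in sprouts, 5′ to 3′ on the strand of the gene, from the RefSeq promoter table on GRCm38.p6 (mm10). Capitals mark matches on either strand to an E2F site (TTTCCCGC, TTTCGCGC, TTTGCCGC or TTTGGCGC), a CHR (TTTGAA or TTCGAA) or a CCAAT box (CCAAT). The window of Mcm5 is cut at the start of the GENCODE vM21 gene model, and that of Pola1 is not shown, since 232 of its 250 bases lie inside that model. The genes lie on chromosome 8 (Mcm5), chromosome 12 (Rrm2), chromosome 2 (Ube2c) and chromosome 9 (Ccnb2).
Mcm5, chr8:75109259-75109467 (+ strand): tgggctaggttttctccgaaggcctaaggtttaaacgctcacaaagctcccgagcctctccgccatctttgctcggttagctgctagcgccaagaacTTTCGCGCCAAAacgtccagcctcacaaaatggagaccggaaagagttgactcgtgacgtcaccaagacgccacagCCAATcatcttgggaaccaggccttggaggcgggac
Rrm2, chr12:24708004-24708253 (+ strand): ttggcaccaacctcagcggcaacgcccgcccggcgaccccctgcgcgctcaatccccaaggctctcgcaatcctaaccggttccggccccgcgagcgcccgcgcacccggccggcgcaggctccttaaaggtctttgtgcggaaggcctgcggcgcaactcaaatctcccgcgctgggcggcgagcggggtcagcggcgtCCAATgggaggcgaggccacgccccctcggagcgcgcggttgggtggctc
Ube2c, chr2:164769679-164769928 (+ strand): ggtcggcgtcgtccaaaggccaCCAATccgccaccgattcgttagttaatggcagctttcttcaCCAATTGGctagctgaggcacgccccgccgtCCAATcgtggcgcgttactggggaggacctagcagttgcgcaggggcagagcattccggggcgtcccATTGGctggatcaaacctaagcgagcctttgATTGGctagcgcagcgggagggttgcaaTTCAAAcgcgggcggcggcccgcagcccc
Ccnb2, chr9:70421555-70421804 (- strand): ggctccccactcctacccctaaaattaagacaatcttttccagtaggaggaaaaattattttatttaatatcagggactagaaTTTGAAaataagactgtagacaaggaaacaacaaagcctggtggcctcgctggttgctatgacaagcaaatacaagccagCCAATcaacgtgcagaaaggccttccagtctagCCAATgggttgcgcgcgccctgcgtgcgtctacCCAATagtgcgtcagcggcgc
Positions count from the RefSeq start, and the Mcm5 bases shown end 41 bases short of the last base before it. The Mcm5 sequence holds an E2F match on each strand, the first from base -153 and the second from base -149, overlapping one another. Rrm2 shows only a CCAAT match, at -50. Ube2c holds 6 CCAAT matches and a CHR at -29. Ccnb2 holds a CHR at -167, another at 5 that lies past the bases shown, and 3 CCAAT matches.

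Across the lists the letters around the starts of the genes differed, by an amount that depended on the window. Promoter sequences were found for 45 of the 56 members, 22 replication and 23 mitosis genes, in windows from 250 bases before to 50 after the start. An E2F match lay in 8 of 22 replication genes (36.4%) and in 1 of 23 mitosis genes (4.35%), beside 2.61% of all 27025 genes with a promoter and 4.57% of those tested in sprouts. A CHR lay in 18 of 23 mitosis genes (78.3%) and 4 of 22 replication genes (18.2%), beside 21.7% of all genes and 16% of those tested in sprouts. A CCAAT box, common everywhere at 41.1% of all genes, lay in 63.6% of replication and 78.3% of mitosis genes. CHR and CCAAT together lay in 16 of 23 mitosis genes (69.6%), in 3 of 22 replication genes (13.6%) and in 8.61% of all genes. Of the 18 mitosis genes with a CHR 10 had it only after the start, and of the 8 replication genes with an E2F match 2 did. In the 100 bases before the start the CHR share was 26.1% of mitosis and 4.55% of replication genes, and the E2F share 9.09% of replication and 0% of mitosis genes, beside 7.18% and 0.981% of all genes. Short motifs recur by composition, and the median GC content of the windows was 58.5% for replication, 59.0% for mitosis and 52.8% for all genes. A match is a run of letters and no measurement of a factor binding there. Of the 47 windows for these 45 genes 20 reach into the GENCODE model of the gene.

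**Figure D3:**
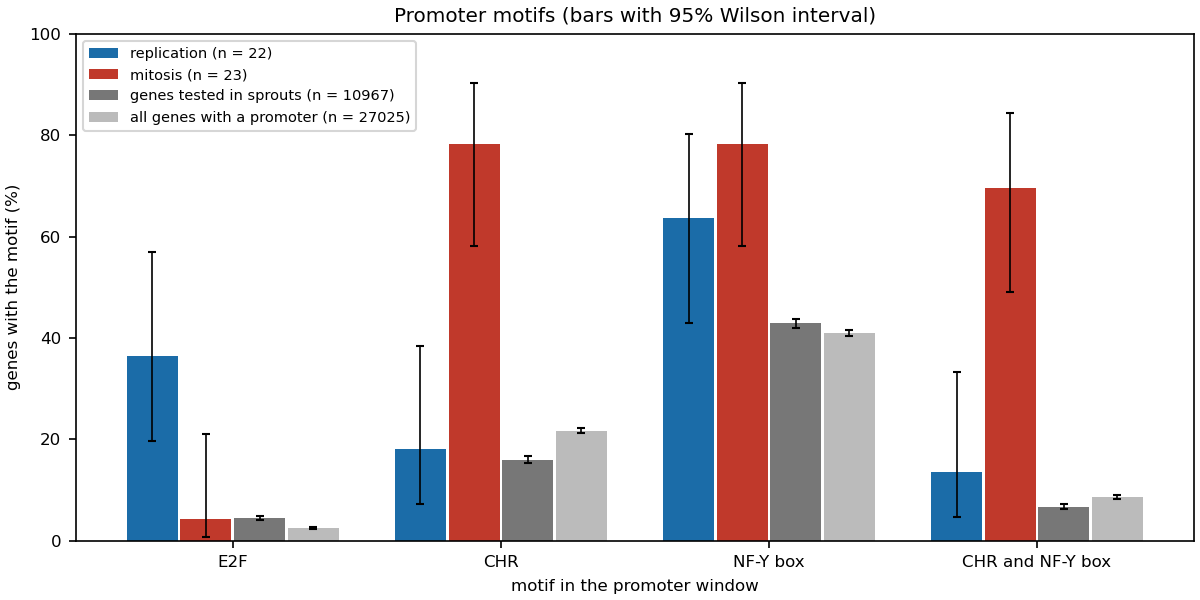
Share of genes (vertical axis, percent) with an E2F site, a CHR, an NF-Y box (the CCAAT motif) or a CHR with an NF-Y box in the promoter window (horizontal axis), for replication genes, mitosis genes, genes tested in sprouts and all genes with a promoter, with 95% Wilson intervals that cover counting error only. E2F matches stand out in replication genes (36.4%) and CHR matches in mitosis genes (78.3%).

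The remaining replication genes of the sprouts gave a similar picture with folds under 2. Ccne1, the cyclin that drives entry into S phase, was at 152 and 108 CPM in STOP and at 64.4 and 81.9 CPM in GO (log2 fold change 0.83 ± 0.20 SE, edgeR adjusted p = 0.0575). Cdc6, which loads the Mcm ring with Cdt1, was at 68.2 and 59.1 CPM against 39.9 and 46 CPM (0.57 ± 0.16 SE). Rpa2, a subunit of the protein that covers single-stranded DNA, was at 146 and 135 CPM against 82.5 and 108 CPM (0.56 ± 0.16 SE). None of the 3 passed the adjusted threshold. The 6 Mcm genes, which form 1 ring, were at 293 to 528 CPM in STOP and at 199 to 379 CPM in GO, with log2 fold changes of 0.46 (Mcm2), 0.38 (Mcm3), 0.43 (Mcm4), 0.77 (Mcm5), 0.38 (Mcm6) and 0.55 (Mcm7). Without STOP replicate 1 the value of Mcm4 was 0.27, and that of Mcm6 ran from 0.20 without GO replicate 1 to 0.60 without GO replicate 2. Pcna was at 96.6 and 91.7 CPM against 65.5 and 75.7 CPM (0.42 ± 0.14 SE). Its counts were only 24% to 24.1% of RSEM's estimate, and those of Ccnb1 (26% to 30.9%) and Tyms (39.8% to 45.3%) were also well below it, so the levels of these genes are uncertain. The smallest replication values were those of Rfc2 (0.09), which loads the clamp, and Rrm1 (0.13). Rrm1 stood at 185 and 188 CPM against 179 and 161 CPM, while its partner Rrm2 had the second largest value of the list.

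Among mitosis genes of the sprouts, Plk1, a kinase of mitotic entry and spindle poles, was at 166 and 134 CPM in STOP and at 101 and 97.3 CPM in GO (log2 fold change 0.60 ± 0.15 SE, edgeR adjusted p = 0.0540). Top2a was at 979 and 905 CPM against 618 and 664 CPM (0.55 ± 0.15 SE, edgeR adjusted p = 0.0643). Cdk1 was at 181 and 176 CPM against 126 and 131 CPM (0.47 ± 0.13 SE, edgeR adjusted p = 0.0659). Cdc20, which activates the anaphase-promoting complex, was at 247 and 209 CPM against 139 and 168 CPM (0.57 ± 0.16 SE). All 4 had separate groups and missed the adjusted threshold. Mki67 was at 377 and 374 CPM against 327 and 325 CPM (0.20 ± 0.13 SE), a tight pair of groups with a small fold. Foxm1, a transcription factor of mitosis genes, was at 93.5 and 69.2 CPM against 79.1 and 79.7 CPM (0.03 ± 0.17 SE), and Ndc80 had 0.16. By role the medians ran from 0.34 for kinetochore genes to 0.52 for checkpoint genes, a narrow span beside the tumor medians of -0.85 to 0.04.

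**Figure D4:**
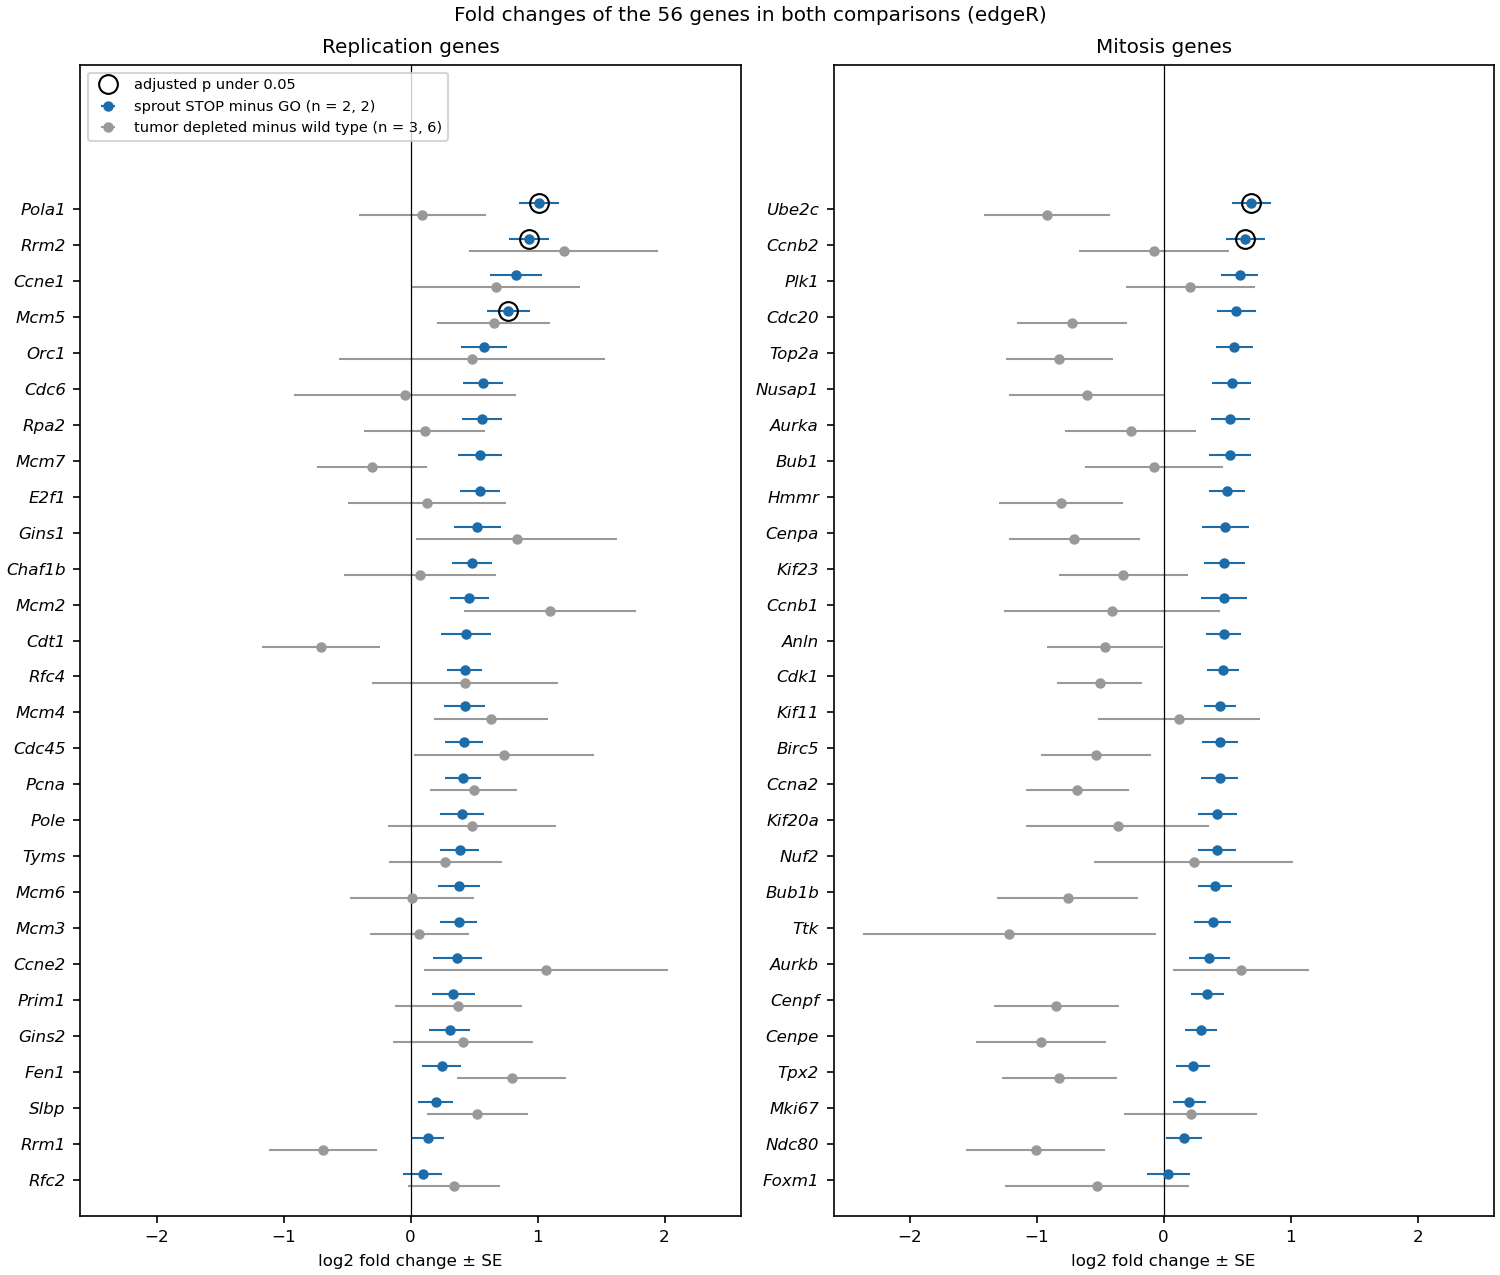
Log2 fold change with its standard error (horizontal axis) of each gene (vertical axis, ordered by the sprout value), STOP minus GO in sprouts and depleted minus wild type in tumors, from edgeR. Circles mark the 5 genes at an adjusted p under 0.05. All 56 sprout values are above 0 with short error bars, although 5 genes have a lower STOP mean on TPM, and tumor values spread on both sides with long ones.

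Per library, the replication genes of sprouts summed to 4948 and 4538 CPM in STOP and to 3050 and 3703 CPM in GO. The mitosis genes summed to 5863 and 5389 CPM and to 3892 and 4372 CPM. The GO libraries differed from one another in the direction of the comparison. GO replicate 2 lay above GO replicate 1 in 49 of 56 members, where 54.3% of all tested genes did, and in 47 of 56 it lay between GO replicate 1 and both STOP libraries, where 25% did. GO replicate 1 was the lowest of the 4 libraries in 25 of 28 replication and 23 of 28 mitosis genes. STOP replicate 1 was the highest in 21 and 25. The ratio of the mitosis to the replication sum was 1.18 and 1.19 in STOP and 1.28 and 1.18 in GO, so the sums of both lists kept nearly the same proportion. The pluripotency sum had the same order of libraries as the replication and mitosis sums, at 6269 and 6008 CPM in STOP and at 2568 and 4040 CPM in GO replicates 1 and 2, with 11 of 12 markers fitted higher in STOP, 1 of them at an adjusted p under 0.05 in edgeR, and 0 at 0 counts. The endothelial sum ran the other way, at 661 and 873 against 2645 and 2422 CPM. The part of these cells in the result was not tested. Mural and fibroblast markers separated libraries within both groups, at 479 and 2673 CPM in STOP and at 2920 and 649 CPM in GO. In each group the library with more of these markers had the lower replication and mitosis sums. GO replicate 2 lay between the STOP libraries in the mural sum but below both in the member sums. The part of mural cells was not tested either.

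**Figure D5:**
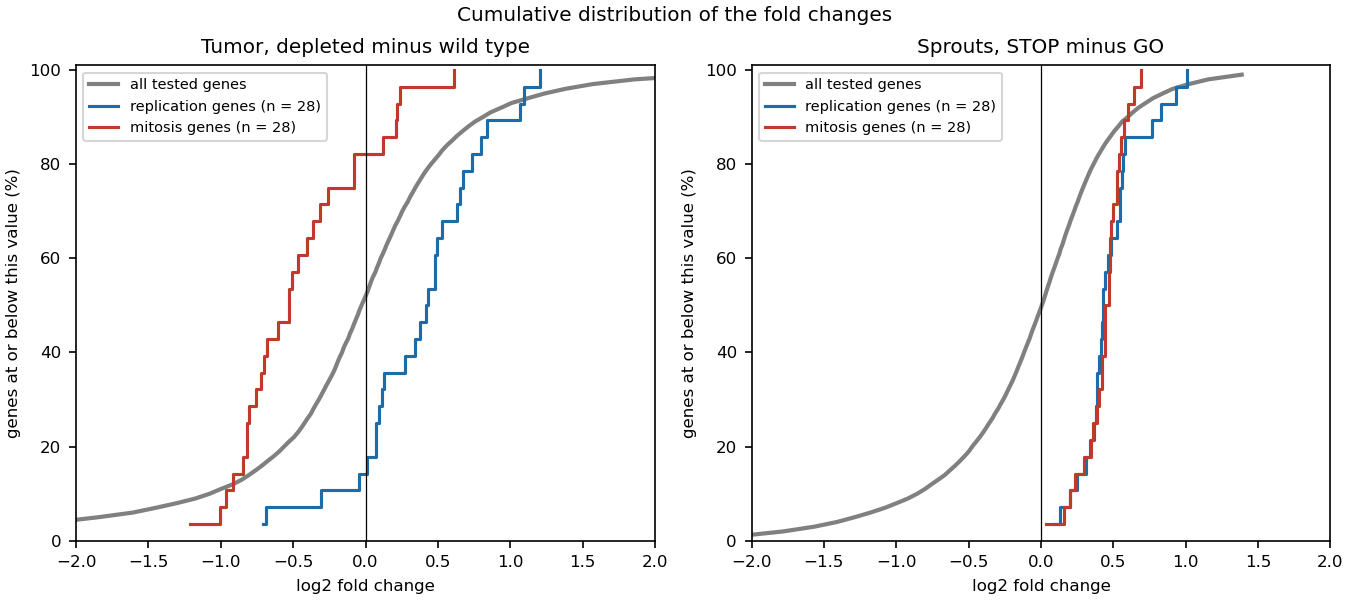
Cumulative share of genes (vertical axis, percent) at or below a log2 fold change (horizontal axis) in tumors (left) and sprouts (right), for all tested genes, replication genes and mitosis genes. In tumors the lists lie on either side of the curve of all genes (medians 0.42 and -0.53), and in sprouts the medians of both lie to the right of it (0.43 and 0.46), with the curves meeting it near the top.

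Whether the tumor and sprout comparisons differ was tested in 1 fit over all 13 libraries. The difference was taken as the tumor log2 fold change (depleted minus wild type) minus the sprout log2 fold change (STOP minus GO). For mitosis genes its median was -1.03, with 27 of 28 below 0, and for replication genes -0.10, with 16 of 28 below 0, beside a median of -0.09 over 15766 genes, 53.8% of them below 0 and 46.2% above. By edgeR 0 members were called (background 0.00634% below 0 and 0% above), with 3 mitosis genes at an unadjusted p under 0.05, where 1.97% of all genes were below 0 at that p and 2.92% above. These were Top2a (-1.43 ± 0.64 SE), Ube2c (-1.66 ± 0.77 SE) and Cdc20 (-1.35 ± 0.63 SE), each at an edgeR adjusted p of 0.9999. DESeq2 had 0 members at an adjusted p under 0.05, where 0.158% of all genes were below 0 and 0.38% above. The tumor and sprout libraries share no sample, and their spread was estimated together although the protocols differ.

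Other genes of the same pathways, from lists of known members, followed the 56 in sprouts. Of 40 other replication genes 38 were fitted higher in STOP (median 0.44, 0 at an adjusted p under 0.05 in edgeR, 23 at an unadjusted p under 0.05, beside 1.92% and 12.4% of all tested genes, and 0 in the lower direction at either). Rfc5, a clamp loader subunit, was at 160 ± 9.48 CPM in STOP and 96.6 ± 25.7 in GO (SD, n = 2 each, log2 fold change 0.73), and Dut, which removes dUTP, was at 230 ± 4.19 and 146 ± 37.2 CPM (0.66). Without GO replicate 1 these values were 0.48 and 0.42. Of 50 other mitosis genes all 50 were fitted higher (median 0.44), and 3 rose at an adjusted p under 0.05 in edgeR, beside the same 1.92%. Those were Kif4, a chromosome-bound kinesin, with a log2 fold change of 0.79 (edgeR adjusted p = 0.0211), Cenpi, a centromere protein, with 0.92 (edgeR adjusted p = 0.0269), and Dlgap5, a spindle protein named after its value was seen, with 0.66 (edgeR adjusted p = 0.0351). Both lists were close to their counterparts among the members.

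In tumors the other replication genes were split, 22 of 40 fitted higher (median 0.06), while of 50 other mitosis genes 40 were fitted lower (median -0.39). The members with the lowest p were Pold2, a polymerase delta subunit (0.96), Tk1, thymidine kinase (0.74), Racgap1, a cytokinesis regulator (-0.70), and Mad2l1, a checkpoint protein (-0.91), all at an edgeR adjusted p of at least 0.957. Leaving out 1 library moved these values to 0.63 for Pold2 (depleted replicate 1), to 0.36 or 1.15 for Tk1 (depleted replicate 3 or 1) and to -0.60 for Mad2l1 (depleted replicate 2). By edgeR 0 of the 90 passed the adjusted threshold in tumors, with 1 at an unadjusted p under 0.05. The lean of the replication members was therefore not seen in the other replication genes.

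Brakes on the cycle and G1 cyclins were described in the same way. Of 7 inhibitors of the Cip/Kip and Ink4 families 6 were fitted lower in STOP sprouts (median -0.33), among them Cdkn1b, p27, at 39.2 ± 7.25 CPM in STOP and 60.4 ± 2.38 in GO (SD, n = 2 each, log2 fold change -0.63, edgeR adjusted p = 0.0695) and Cdkn1c, p57, at -0.60 (-0.28 without STOP replicate 1 and -0.99 without STOP replicate 2). None passed the adjusted threshold in edgeR, with 2 lower at an unadjusted p under 0.05, where 14.3% of all tested genes were. In tumors 4 of the 6 tested were fitted higher (median 0.19), Cdkn2b at 0.80 (1.2 without wild-type replicate 5) and Cdkn1a, p21, at 0.27 (0.025 without depleted replicate 3 and 0.51 without depleted replicate 2). Of 9 G1 cyclins, their kinases and Myc factors, Ccnd2, cyclin D2, had the lowest p in tumors, at 44.1 to 143 CPM in the depleted libraries and 189 to 514 CPM in the wild-type libraries, with no overlap between the groups. Its log2 fold change was -1.72 (edgeR adjusted p = 0.686), and it passed with DESeq2 (adjusted p = 0.0306) and in edgeR without the filter on low counts (adjusted p = 0.0225). With these settings 0.635% and 0.032% of all genes were lower at an adjusted p under 0.05. Mycn was higher in the fit, at 2.54 (edgeR adjusted p = 0.9999), and at 0.96 without depleted replicate 2. In sprouts Myc had -0.86 (edgeR adjusted p = 0.0575) and Ccnd3, cyclin D3, 0.51 (edgeR adjusted p = 0.0825), and the list's median was 0.16. In the fit of both sets the difference between tumors and sprouts was called by edgeR for 0 of the 7 inhibitors and 0 of these 9 genes, with 0 at an unadjusted p under 0.05 in either list (lowest edgeR adjusted p = 0.9999), so neither list was shown to differ between the sets.

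Of 14 pocket proteins and other E2F-related factors 12 were fitted higher in STOP sprouts (median 0.18), with Mybl2, the B-Myb subunit that works at CHR promoters, at 536 ± 91.6 CPM in STOP and 308 ± 97.0 in GO (SD, n = 2 each, log2 fold change 0.80) and E2f8 at 0.80. In tumors E2f2 had 1.6 (0.96 without depleted replicate 2) and E2f5 -0.70 (-1.17 without depleted replicate 1), with a median of -0.21 over the list. Of 12 p53 target genes 9 were fitted higher in STOP sprouts (median 0.27), with Gadd45a at 0.51 and Pmaip1 at 0.48, and in tumors the median was 0.01 over 11, with Trp53inp1 at 1.24 and Mdm2 at 0.47 (0.088 without depleted replicate 1). Without GO replicate 1 the sprout values were 0.51 for Mybl2, 0.30 for Gadd45a and 0.25 for Pmaip1, and without GO replicate 2 that of Pmaip1 was 0.75. By edgeR 0 genes of these 2 lists passed the adjusted threshold in either set, with 7 in sprouts, all higher in STOP, and 0 in tumors at an unadjusted p under 0.05, where 12.4% of all genes tested in sprouts were higher and 14.3% lower.

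Between genes, levels were compared per length. In sprouts, on the deposited TPM, Pcna was highest with a median of 403 over the 4 libraries, ahead of Mcm7 (249), Top2a (214), Ube2c (204), Mcm6 (202) and Mcm3 (182), and lowest were Cdc6 (18.7) and Ccne2 (9.5). HTSeq counts were 24% to 24.1% of RSEM's estimate for Pcna and 64.4% to 67.7% for Mcm7, so the places of both in this order are uncertain. These medians pool STOP and GO. In tumors, as CPM per kilobase of merged exons over the 9 libraries, Ccnb2 led with a median of 85.7 and a range of 22 to 206, ahead of Cdc20 (35.6), Ube2c (35.6), Pcna (27.6) and Birc5 (25.6). In sprouts Pcna lay above Mcm7 in every library (365 to 459 against 212 to 321) and Cdc6 above Ccne2 (16.4 to 24.6 against 8.22 to 11.3), while neighbors in the order Mcm7, Top2a, Ube2c, Mcm6 and Mcm3 overlapped in range, as did neighbors among the 5 genes named for tumors. The 56 genes together took 0.162% to 0.349% of all counts in tumor libraries, 0.700% and 0.812% in GO and 1.07% and 0.989% in STOP. Tumor and sprout libraries were made with different protocols, and these shares stand side by side without a test.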

How the data were processed

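RNA-seq was analysed from 9 libraries of tumor endothelium and 4 of sprouting endothelium. For tumors the authors trimmed reads (Trim Galore 0.5.0), and deposited whole-number read counts per gene from featureCounts (Subread 1.6.2) on mm10, and the submitters' notes also name Bowtie2 2.3.4.1 and SAMtools 1.9. For sprouts the authors deposited HTSeq 0.6.1p1 counts after STAR 2.5.0a, and RSEM 1.2.25 expected counts and TPM. HTSeq left 54.1% to 59.1% of reads unassigned, and these were kept out of library sizes.

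Counts were tested with edgeR 4.0.16 (quasi-likelihood, TMM scaling, filterByExpr with a minimum count of 10, robust) in R 4.3.3, each set alone and both together, with Benjamini-Hochberg adjustment over all tested genes. A gene was called at an adjusted p under 0.05 and an absolute log2 fold change over 1. RSEM expected counts were rounded. DESeq2 1.42.0, limma 3.58.1 voom, other scalings and filters, a replicate block and leaving out each library were alternatives. The steps were tested on simulated data. The members and lists were chosen with earlier results of these data known. Named are members at an adjusted p under 0.05, the 6 of each list with the lowest p in each set, the Mcm genes, Pcna, Mki67, Top2a and Cdk1, and of each other list the 2 genes with the lowest p. Precision is limited by 2 libraries per sprout group and by 100 cells per tumor library, and the 3-count floor and intervals cover counting error only.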

Additional observations from a re-analysis of the deposited data

Results flagged for a closer look

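In the 6 wild-type tumor libraries, replicate 5 stood far from the others in 2 mitosis genes. Top2a was at 430 CPM there and at 189 CPM in the nearest library, a gap of 0.770 of the group's range, and Cenpf was at 262 CPM against 95.6 CPM, a gap of 0.740, both beyond the 95% critical value of Dixon's test for 6 samples. Of 23 groups of values tested, 2 passed this limit, and chance passes about 5% of groups.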

How the results depend on the processing

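In tumors 0 members passed the adjusted threshold in any alternative. With the replicate block 18 of 28 replication genes were fitted higher (median 0.21), and 17 to 25 without 1 library. Values of single genes changed sign with the replicate block, to -0.11 for Rrm2, -0.14 for Mcm2, -0.10 for Mcm3 and -0.47 for Mcm6, and with voom to -0.22 for Mcm6. Without the 3 libraries raised in myeloid, epithelial or mural and fibroblast markers Mcm7 turned to 0.026. Leaving out 1 library at a time gave -0.94 to 1.6 for Mcm2, -0.24 to 0.28 for Mcm3, -0.85 to 0.33 for Mcm6, -0.81 to 0.044 for Mcm7, -0.94 to 1.74 for Rrm2 and -0.19 to 0.65 for Mki67. The tumor medians ran from 0.15 (without depleted replicate 2) to 0.64 for replication and from -0.82 to -0.34 for mitosis genes, and 10 mitosis genes were fitted higher without the 3 libraries and 3 to 7 without any 1.

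In sprouts the count of replication genes at an adjusted p under 0.05 was 8 with DESeq2, 10 without the filter and 0 to 7 without 1 library, and of mitosis genes 11, 13 and 0 to 6, with 0 on RSEM counts. Of all tested genes 4.94% were higher at that threshold with DESeq2, 4.03% without the filter, 1.42% on RSEM counts and 0.0806% (without STOP replicate 1) to 4.37% (without GO replicate 2) without 1 library. Past both thresholds the replication count was 0 with DESeq2's size factors and with RSEM counts, and 0 to 3 without 1 library, and with no fold threshold 3 replication and 2 mitosis genes passed. The replication median ran from 0.33 to 0.60 without 1 library. On RSEM counts and without STOP replicate 1, 27 of 28 mitosis genes were fitted higher, and without GO replicate 1, 27 of 28 replication genes. Same-numbered libraries correlated at -0.389 in sprouts and at -0.058, 0.051 and -0.109 in tumors. With 2 libraries per sprout group both replicates give the same value, and these values cannot settle whether the numbers pair samples. With the replicate block 0 replication and 0 mitosis genes passed in sprouts, where 0.0206% of all tested genes were higher at the adjusted threshold. With the numbers crossed, a choice made after seeing the data, 20 and 20 passed, beside 10.8% of all tested genes. In the fit of both sets the replication median ran from -0.41 to 0.22 without 1 library, and 2 mitosis genes were above 0 with RSEM counts and 1 to 4 without 1 library. In promoter windows of 100 bases, an E2F match lay in 9.09% of replication and 0% of mitosis genes, a CHR in 4.55% and 26.1%, a CCAAT box in 59.1% and 69.6%, and CHR with CCAAT in 0% and 21.7%. The cause of these shifts was not tested.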
